A study of Callithrix jacchus with 4 samples.

Results

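Lamp5 interneurons were examined in single-nucleus profiles of somatosensory cortex of wild-type common marmosets (Callithrix jacchus), a New World primate. Neonates (D0) and adults 2 years old (Y2) were sampled. They were the nuclei that the authors annotated as Inh_Lamp5, 229 of 36592 nuclei in all and of 15968 nuclei at Y2. The nuclei carried 4 library labels, 2 per age, and each label counted as 1 replicate. According to the study, each library came from a separate animal. Its methods name more libraries than there are labels and place the extra one in batch 1. Replicate 1 is batch 1 in the labels, so if the numbers match, a replicate 1 label may hold more than 1 animal. Below, a label is treated as 1 library and 1 animal. Libraries of replicates 1 and 2 contained 6482 and 14142 nuclei at D0 and 5622 and 10346 at Y2. No animal had been manipulated. The protocol in the labels names motor cortex beside somatosensory cortex, whereas the study's methods for the marmoset nuclei name somatosensory cortex alone. Gene values were not analysed here, so the annotation could not be checked against LAMP5 and GAD1, the genes expected to mark these cells, and the name is used as deposited.

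Interneurons are the GABAergic neurons of local cortical circuits, and GAD1 encodes an enzyme that makes GABA. They are born outside the cortex, in the ganglionic eminences, and migrate into it. Lamp5 interneurons include the neurogliaform cells, which release GABA diffusely onto many neighbours and are known to be common in the outermost cortical layers. Like Vip interneurons, they are held to arise mainly from the caudal ganglionic eminence, whereas Sst and Pvalb interneurons arise from the medial one. A primate population of Lamp5 interneurons that carries medial markers is also known, and the labels used here do not separate it.

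All 229 Inh_Lamp5 nuclei lay in 1 cluster, number 33, which held no nucleus of another type. Of these, 75 came from Y2 replicate 1 (batch 1) and 154 from Y2 replicate 2 (batch 2), so batch and animal cannot be told apart within the adults. The table listed 0 Inh_Lamp5 nuclei at D0, which allows up to 0.0463% of D0 replicate 1 and 0.0212% of D0 replicate 2. The age of these nuclei is part of how they were chosen, so their own difference between ages is given without a test. Cluster 33 was the 16th largest of 18 clusters with Y2 nuclei. Each of the other interneuron types likewise formed 1 cluster at Y2, while Layer IV and CthPN nuclei each formed 3 and ScPN nuclei formed 4. Barcodes that also occurred in another library were carried by 5 of the 229 nuclei (2.18%, 95% Wilson interval 0.936% to 5.01%), against 3.57% of all nuclei. None of the 5 nuclei that shared these barcodes was an interneuron.

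The first question was how large a part of the adult sample Lamp5 interneurons formed and how far it varied between animals. Inh_Lamp5 made up 1.33% of nuclei in Y2 replicate 1 (95% Wilson interval 1.07% to 1.67%) and 1.49% in Y2 replicate 2 (1.27% to 1.74%), a mean of 1.41% ± 0.109 (SD, n = 2). Over neurons only, the shares were 1.34% and 1.55%. Over interneurons only, they were 12.4% (10.0% to 15.3%) and 11.8% (10.1% to 13.6%), a mean of 12.1% ± 0.449 (SD, n = 2). Each of these pairs of intervals overlapped. Intervals cover counting error only, and fewer nuclei of a type cannot be told apart from a lower recovery of that type.

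Inh_Lamp5 was then set against each of the other interneuron types (the plot of Inh_Lamp5 per 100 nuclei of each type). Against Inh_Pvalb, the parvalbumin interneurons that include fast-spiking basket cells, there were 22.1 Inh_Lamp5 nuclei per 100 in Y2 replicate 1 (exact 95% interval 17.0 to 28.5) and 22.7 in Y2 replicate 2 (18.9 to 27.1). Against Inh_Sst, the somatostatin interneurons that inhibit dendrites, there were 54.3 per 100 (40.5 to 72.5) and 52.0 per 100 (42.5 to 63.4). These ratios hardly varied between the adults. The ratio to Inh_Pvalb was 1.03-fold higher in replicate 2 than in replicate 1 (exact conditional 95% interval 0.749 to 1.41) and the ratio to Inh_Sst was 0.957-fold (0.671 to 1.37). Among all 45 pairs of annotated types, these pairs had the smallest and the second smallest fold between the Y2 libraries. The pair of Inh_Sst and Inh_Pvalb came next at 1.07-fold, so this evenness was not particular to Inh_Lamp5. By the median fold over all its pairs, Inh_Lamp5 had rank 4 of 10 types, smallest first. With 75 and 154 nuclei, a difference within these intervals was not detectable.

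Inh_Vip, the interneurons that mainly inhibit other interneurons, differed from this pattern. Over both adults the Inh_Lamp5 and Inh_Vip nuclei were almost equal in number, 229 and 230, but their order changed between animals. Y2 replicate 1 held 75 Inh_Lamp5 and 52 Inh_Vip nuclei, or 144 per 100 (exact 95% interval 99.9 to 210). Y2 replicate 2 held 154 and 178, or 86.5 per 100 (69.3 to 108). Both intervals hold 100, so in neither library did the 2 types differ beyond counting error. The ratio itself was 1.67-fold higher in replicate 1 (exact conditional 95% interval 1.08 to 2.58). This interval compares 2 libraries and not conditions, and the Inh_Vip share of interneurons moved with it, from 8.61% in replicate 1 to 13.6% in replicate 2. In order of number, Inh_Pvalb led the adult interneurons, Inh_Sst followed, and Inh_Lamp5 and Inh_Vip shared the last places.

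**Figure D1:**
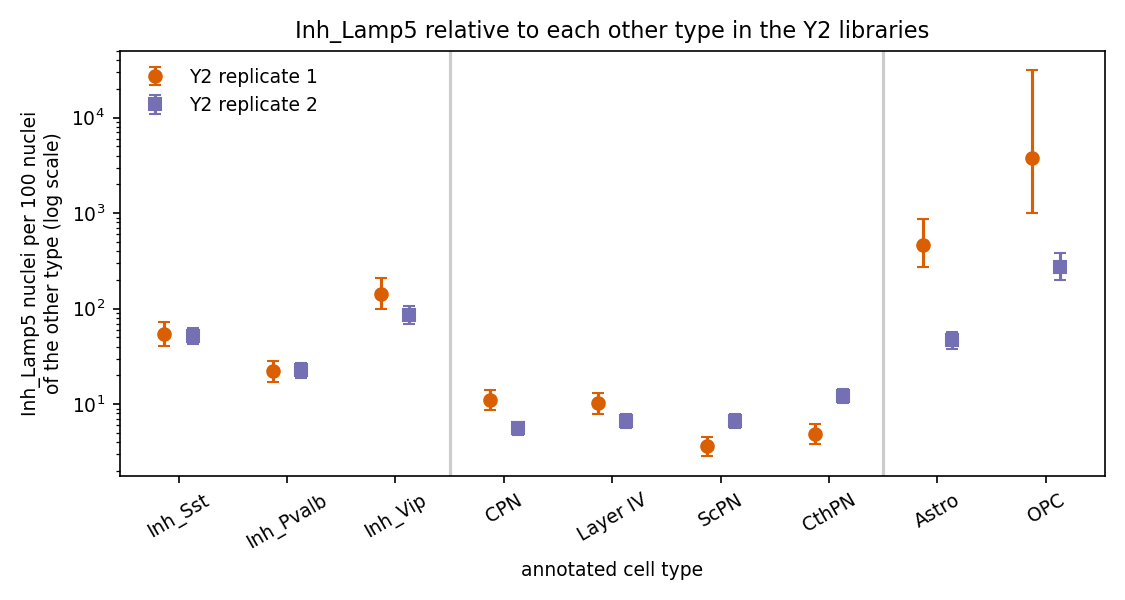
Inh_Lamp5 nuclei per 100 nuclei of each other annotated type (y axis, log scale; x axis, type) in Y2 replicate 1 (orange circles) and Y2 replicate 2 (violet squares), with exact 95% intervals as bars. The libraries lie together for Inh_Sst (54.3 and 52.0) and Inh_Pvalb (22.1 and 22.7), and apart for CPN (11.2 and 5.58) and CthPN (4.91 and 12.1).

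Ratios to the glutamatergic neurons were examined next. They are called projection neurons here, and Layer IV neurons are counted among them. Per 100 callosal projection neurons (CPN), which connect the hemispheres, there were 11.2 Inh_Lamp5 nuclei in Y2 replicate 1 (exact 95% interval 8.68 to 14.2) and 5.58 in replicate 2 (4.71 to 6.56). Per 100 Layer IV neurons, on which thalamic axons chiefly end, there were 10.2 (7.95 to 13.0) and 6.65 (5.61 to 7.83). The order was the opposite for the projection neurons that leave the cortex for subcortical targets. Per 100 subcerebral projection neurons (ScPN) there were 3.63 (2.84 to 4.57) and 6.68 (5.64 to 7.86). Per 100 corticothalamic projection neurons (CthPN) there were 4.91 (3.84 to 6.19) and 12.1 (10.2 to 14.4). For all 4 projection neuron types the intervals of the adults did not overlap. The fold between the adults was between 1.54 and 2.47 for these types, against 1.03 and 1.04 for Inh_Pvalb and Inh_Sst. For Inh_Vip it was 1.67, within the range of the projection neuron types. Whether these folds differ was not tested.

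Summed over all projection neurons, these differences largely cancelled. There were 66.7 projection neurons for each Inh_Lamp5 nucleus in Y2 replicate 1 (exact 95% interval 53.1 to 84.9) and 56.2 in replicate 2 (47.9 to 66.3), and the ratio of Inh_Lamp5 to projection neurons was 1.19-fold higher in replicate 2 (0.893 to 1.59). CPN and Layer IV nuclei, which lie in large part above the ScPN and CthPN of the deep layers, were counted together after the values had been seen. There were 18.7 of them per Inh_Lamp5 nucleus in replicate 1 (14.8 to 24.0) and 33.0 in replicate 2 (28.1 to 39.0). For ScPN and CthPN together there were 47.9 (38.1 to 61.1) and 23.2 (19.7 to 27.5). Y2 replicate 1 held 0.391 CPN and Layer IV nuclei per ScPN or CthPN nucleus and Y2 replicate 2 held 1.42, a 3.64-fold difference. Leaving out the clusters of a single adult removed CPN and Layer IV nuclei of replicate 1 only. It could therefore only widen this difference, which became 6.45-fold. The Inh_Lamp5 share of all nuclei was 1.33% and 1.49% in the same libraries, with overlapping intervals.

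**Figure D2:**
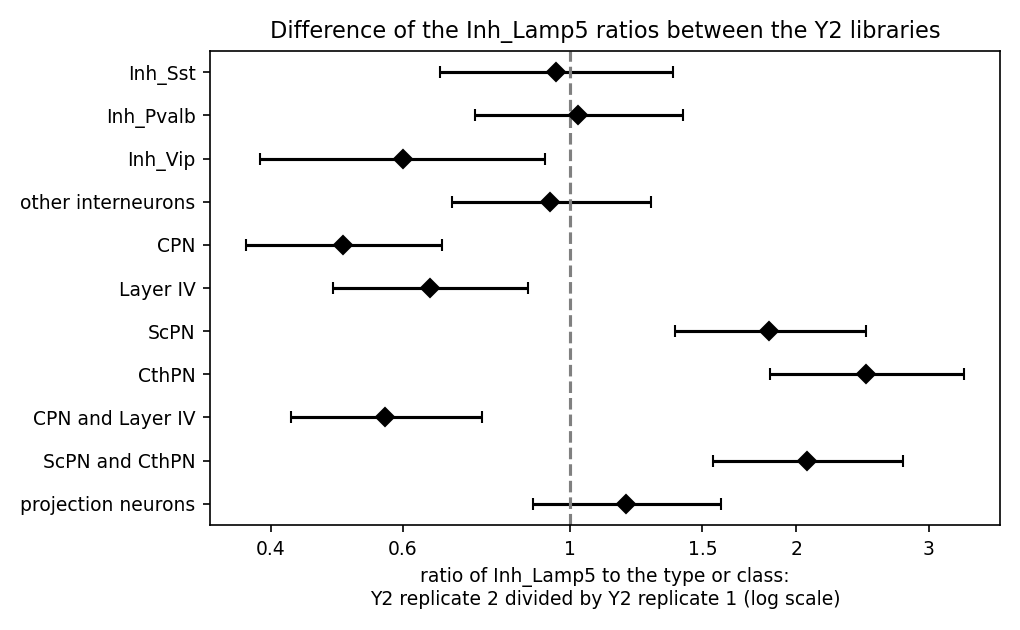
Ratio of Inh_Lamp5 to each neuronal type or summed class in Y2 replicate 2 divided by that in Y2 replicate 1 (x axis, log scale; y axis, type or class), with exact conditional 95% intervals as bars and a dashed line at 1. Intervals hold 1 for Inh_Sst, Inh_Pvalb, all other interneurons and all projection neurons, and lie to one side of it for Inh_Vip and each projection neuron type.

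Ratios to CPN and Layer IV depended on clusters that came from a single adult. All 360 nuclei of the CPN cluster 23 and all 253 of the Layer IV cluster 26 came from Y2 replicate 1. Leaving them out can only lower the counts of replicate 1, so the direction of the changes below was fixed. Clusters of these types that came mostly from replicate 2 were kept. With the clusters of 1 library left out, the CPN per Inh_Lamp5 nucleus fell from 8.95 to 4.15 in replicate 1 and were 17.9 in replicate 2, so that the ratio of Inh_Lamp5 to CPN was 4.33-fold higher in replicate 1 in place of 2.00-fold. For Layer IV the same fold was 2.34 in place of 1.54. For all projection neurons it became 1.04-fold higher in replicate 2 (exact conditional 95% interval 0.783 to 1.39).

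Glial nuclei gave the least even ratios. Astrocytes (Astro), which support neurons and synapses, numbered 16 in Y2 replicate 1 and 331 in replicate 2, and Inh_Lamp5 per astrocyte was 10.1-fold higher in replicate 1 (exact conditional 95% interval 5.57 to 19.1). Oligodendrocyte precursor cells (OPC) numbered 2 and 56, and the same fold was 13.6 (3.42 to 118).

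The balance of the Lamp5 cluster between the adults was compared with that of every other Y2 cluster. After both libraries were weighted to equal size, 47.3% of cluster 33 came from Y2 replicate 1 (exact 95% interval 40.1% to 54.3%), where 50% marks equal contribution. Its neighbours in this order were the Inh_Pvalb cluster 14 at 47.9% (44.6% to 51.2%) and the Inh_Sst cluster 22 at 46.2% (41.0% to 51.3%), and these 3 could not be told apart. Of the 18 clusters with Y2 nuclei, cluster 33 lay second nearest to 50%, after cluster 14. The interval held 50% for 5 clusters, the 3 interneuron clusters above and 2 ScPN clusters (29 and 34), of 179 and 243 nuclei. Both ends of the order were held by clusters of other classes, the OPC cluster 18 at 6.17% and clusters 23 and 26 at 100%. A small cluster has a wide interval, so that holding 50% is less strict for cluster 33 than for cluster 14.

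**Figure D3:**
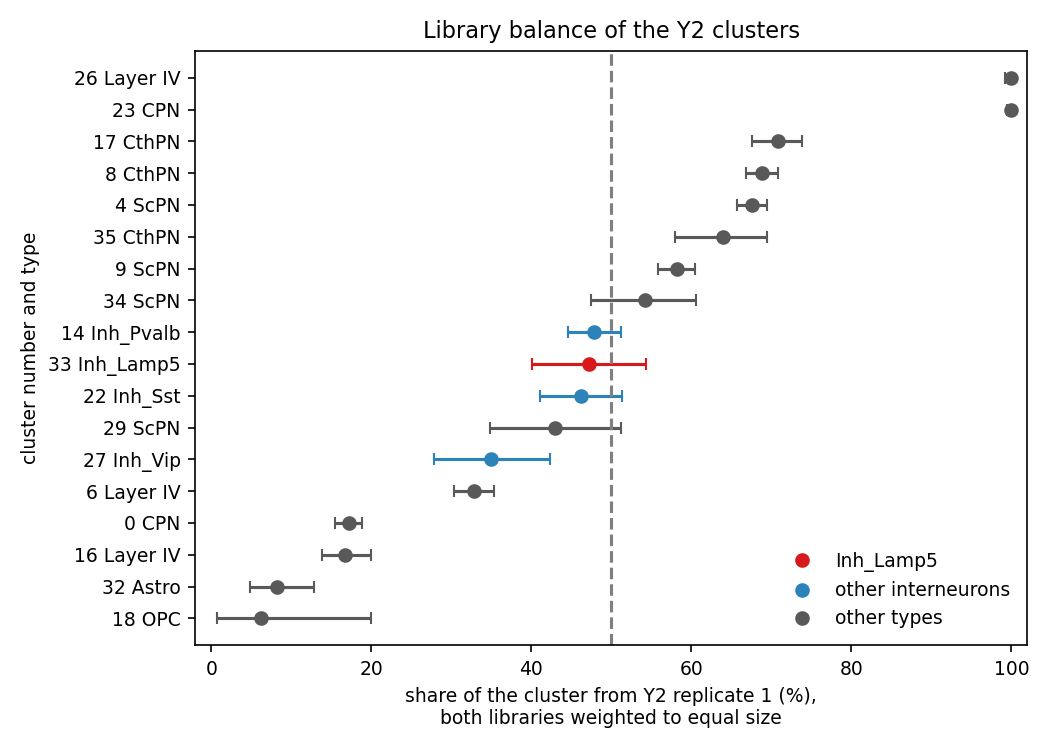
Share of each Y2 cluster that came from Y2 replicate 1 (x axis, %, both libraries weighted to equal size; y axis, cluster number and annotated type), with exact 95% intervals as bars and a dashed line at 50%. The Inh_Lamp5 cluster (red, 47.3%) lies beside the Inh_Pvalb and Inh_Sst clusters (blue), and the Inh_Vip cluster lies at 35.0%.

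The last question was how far the absence of Inh_Lamp5 nuclei at D0 bears on the age differences of the other interneurons. The sources used here do not say under which annotation neonatal cells of this lineage would have been placed. The adult Inh_Lamp5 nuclei were therefore added to each other type in turn, and the shares of the 4 libraries were compared between ages with limma on the logit scale. All of them are Y2 nuclei by selection, so adding them can only raise the Y2 share of a type. The direction of each change was thus fixed, and the p of a combined type is no test of Inh_Lamp5. Added to Inh_Vip, which shares their main place of birth, they brought its share of adult interneurons from 8.61% and 13.6% to 21.0% and 25.4% in Y2 replicates 1 and 2. The D0 libraries held 35.3% and 27.5%, so the ages still did not overlap. The odds of an interneuron being in this combined type were higher at D0 by a factor of 1.51 (95% interval 1.04 to 2.19; adjusted p = 0.0357, limma, n = 2 libraries per age), where 100% of the 3 types of this partition passed. For Inh_Vip alone the factor was 3.71 (2.26 to 6.10; adjusted p = 0.000583), but it did not pass with the quasi-binomial model (adjusted p = 0.0789) or without D0 replicate 1 (adjusted p = 0.0692, limma). Values for a type alone come from the fit of the 4 annotated types, in which Inh_Lamp5 took part with D0 values set by the added 0.5 nuclei. The combined share fell by 14.2 percentage points in batch 1 and by 2.14 in batch 2, and with the replicate block it did not pass (adjusted p = 0.139). It also failed to pass without any 1 of the 4 libraries (adjusted p from 0.0676 without D0 replicate 2 to 0.285 without D0 replicate 1, with 0.0923 without Y2 replicate 2 and 0.277 without Y2 replicate 1).

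Added to Inh_Sst, the Inh_Lamp5 nuclei brought its share of adult interneurons from 22.8% and 22.6% to 35.3% and 34.4%, against 40.2% and 45.2% at D0. The combined type did not pass the test (odds higher at D0 by a factor of 1.39, 95% interval 0.852 to 2.27, adjusted p = 0.151, limma), while 66.7% of the 3 types of this partition did. For Inh_Sst alone the factor was 2.52 (1.53 to 4.14; adjusted p = 0.00263). Added to Inh_Pvalb, whose share of interneurons was already higher at Y2, they could only widen the difference. The share of adult interneurons went from 56.1% and 52.0% to 68.5% and 63.7%, against 24.6% and 27.3% at D0, with odds 5.59 times higher at Y2 (3.40 to 9.19; adjusted p = 0.000445, limma) in place of 3.36 times (2.05 to 5.52). The centred log-ratio scale sets each type against the mean log share of all types in the fit. In the fit of the 4 annotated types, this mean includes Inh_Lamp5, whose D0 values are set by the added 0.5 nuclei. There, Inh_Pvalb alone was lower at Y2 (natural log difference -0.607, Y2 minus D0). It was higher at Y2 on this scale with Inh_Lamp5 added to Inh_Sst (0.907) or to Inh_Vip (0.798). With Inh_Lamp5 added to Inh_Pvalb, the combined type kept its direction. In this partition 100% of the 3 types passed, or 2 of 3 with the quasi-binomial model, without D0 replicate 1 or without D0 replicate 2, where Inh_Vip was lost. These fits share all libraries and the shares of a partition sum to a constant, so the types are not independent, and limma pooled their spread completely.

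**Figure D4:**
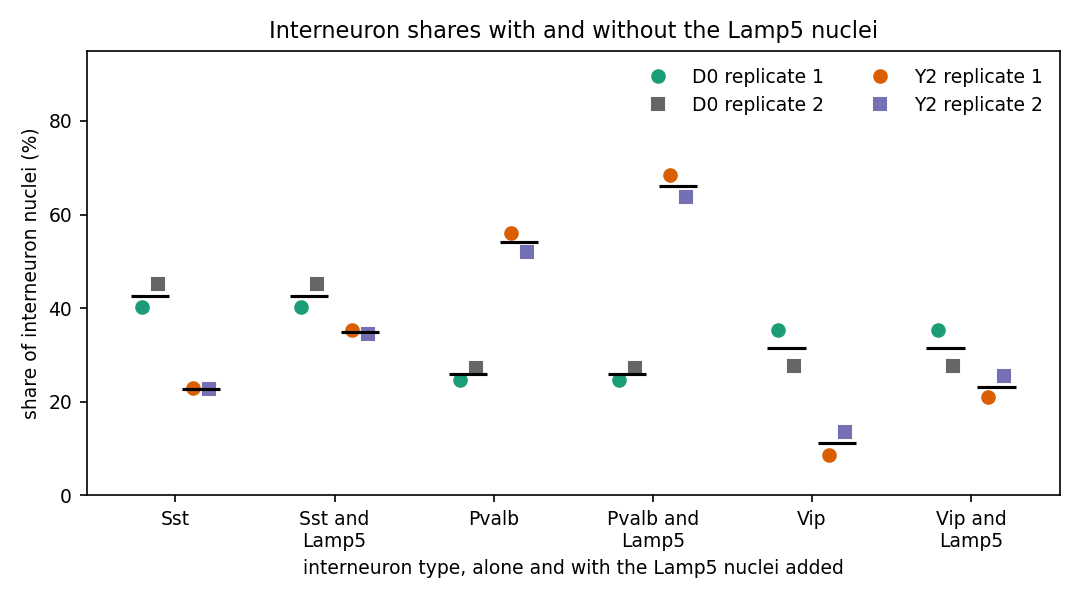
Share of interneuron nuclei (y axis, %) of Inh_Sst, Inh_Pvalb and Inh_Vip alone and with the Inh_Lamp5 nuclei added (x axis) in D0 replicates 1 and 2 (green circles, grey squares) and Y2 replicates 1 and 2 (orange circles, violet squares), with lines for the mean of 2 libraries. Adding Inh_Lamp5 moves the adult Inh_Vip shares from 8.61% and 13.6% to 21.0% and 25.4%, still below both D0 libraries.

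Over all nuclei, none of the 3 combined types passed the test. The adjusted p was 0.107 for Inh_Vip with Inh_Lamp5, 0.110 for Inh_Sst with Inh_Lamp5 and 0.443 for Inh_Pvalb with Inh_Lamp5 (limma). In each of these partitions 0 of 9 types were called, or 0%, with 4 at an unadjusted p under 0.05, and the quasi-binomial model called 0, with 1 at an unadjusted p under 0.05. Inh_Vip with Inh_Lamp5 accounted for 9.53% and 5.69% of nuclei in the neonates against 2.26% and 3.21% in the adults, with odds that were higher at D0 by a factor of 2.87 (95% interval 1.04 to 7.91). Alone, Inh_Pvalb hardly differed over all nuclei (odds 1.03 times at Y2, 0.441 to 2.41, adjusted p = 0.928, limma). Inh_Sst and Inh_Vip alone had odds 4.10 and 6.20 times higher at D0 (both adjusted p = 0.0354, limma). In that fit 3 of 10 types were called, Inh_Lamp5 among them by its selection, and 0 with the quasi-binomial model. With the replicate block, Inh_Vip alone still passed (adjusted p = 0.0328, limma) and Inh_Sst alone did not (0.0787). Both calls depended on the fit that holds Inh_Lamp5. On the same counts, Inh_Vip alone did not pass with Inh_Lamp5 added to Inh_Sst (adjusted p = 0.107, limma). Neither type alone passed with Inh_Lamp5 added to Inh_Pvalb.

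Vip and Lamp5 nuclei together were finally set against Sst and Pvalb nuclei, a division by the main place of birth. For replicates 1 and 2 the ratio was 0.544 and 0.380 at D0 and 0.266 and 0.341 at Y2. It was lower in both adults than in both neonates. The mean log2 ratio was -1.14 ± 0.37 (SD, n = 2) for neonates and -1.73 ± 0.25 (SD, n = 2) for adults, a 1.51-fold difference. Batch 1 alone gave 2.05-fold and batch 2 alone 1.12-fold. This ratio is the odds of the combined Inh_Vip and Inh_Lamp5 type among interneurons, so its test across types is the limma result above. A two-sided exact permutation test of the ratio by itself gave 0.3333, the lowest p that it can reach with 4 libraries. With Inh_Lamp5 left out of the ratio, the fold was 3.22.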

How the data were processed

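The authors isolated DAPI-positive nuclei by sorting, built droplet libraries of transcript 3-prime ends and counted them with Cell Ranger 2.1.0, as also named in the submitters' processing notes. They thinned libraries to equal complexity, applied a gene minimum, corrected batches by canonical correlation analysis in Seurat and named clusters from marker genes. Nuclei below a limit of variance explained by the canonical correlation analysis were discarded. These filters can remove types unequally, so shares are of retained nuclei. Batch and replicate coincide here, so the discard may also bear on the balance between libraries, which was not tested. How doublets were treated was not stated in these sources. The extraction protocol in the labels is written for cerebellum, while tissue is labelled somatosensory cortex. The study's methods name more libraries of nuclei than the 4 labels used here. The 36592 nuclei analysed equal the study's final count, so whether a label pools libraries or a library was dropped is not known. The methods give batch 2 a single library of each age. If their batch numbers match the labels, the doubt falls on the replicate 1 labels alone.

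The deposited table lists labels of 1 nucleus per row, and 0 nucleus names were repeated. Library and age were taken from the sample descriptions, whose replicate numbers differ from some titles. Nuclei were counted per library and type. Shares have Wilson intervals, ratios exact (Clopper-Pearson) intervals and folds between libraries exact conditional intervals of the odds ratio, at 95%; a count of 0 was given the limit of 3 nuclei. No p was computed from nuclei. Ages were compared with limma 3.58.1 in R 4.3.3 on logit shares with 0.5 nuclei added, over all types of each partition, with Benjamini-Hochberg adjustment within each fit and a threshold of 0.05. The code was run on simulated counts with a large planted effect. Their spread between libraries was smaller than that of types such as Inh_Vip, so the run does not show how the fit performs here. In the deposited labels replicate 1 was batch 1 and replicate 2 was batch 2 at both ages, so numbers pair libraries by batch. The correlation of same-numbered deviations from the age mean was 0.417 over 9 types. With 2 libraries per age both pairs must give the same value, so it is no test of the pairing. Python 3.11.15, pandas 2.3.3, scipy 1.17.1 and matplotlib 3.10.9 were used.

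All annotated types were named; clusters named were the Lamp5 cluster, its neighbours in library balance, the ends of that order and, after their values were seen, clusters 20, 29 and 34. The members, lists and tests were chosen with earlier results of these data known.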

Additional observations from a re-analysis of the deposited data

How the results depend on the processing

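Library number, 2 per age, limits the age comparisons, and the 229 nuclei limit the ratios. With 2 libraries, leaving one out gives the value of the other and cannot move a mean log2 ratio by more than its SD, so it says nothing of stability. Pooling the nuclei of both adults took the log2 ratio of Inh_Lamp5 from 0.16 to -0.0063 for Inh_Vip and from 0.56 to -0.60 for astrocytes. With clusters of 1 library left out, the ratio to all other nuclei moved to -6.01. Under the same setting the fold of the ratio between Y2 replicates 2 and 1 moved to 0.231 for CPN, 0.426 for Layer IV and 0.320 for both together. That of CPN and Layer IV to ScPN and CthPN moved to 6.45. The direction of these moves of the fold was fixed, since CPN and Layer IV lost nuclei of replicate 1 only. Astrocytes and OPCs have no value there. The balance of cluster 33 was 46.4% over neurons and 51.3% over interneurons. Among interneurons, the log-odds difference of Inh_Vip with Inh_Lamp5 was no longer called as centred log-ratios (-0.235, adjusted p = 0.0598), with the quasi-binomial model (-0.325, 0.339), with the replicate block (-0.411, 0.139) or with any library left out (-0.591 to -0.232). It was called with cluster 20, a D0 cluster annotated Inh_Sst, counted as Inh_Lamp5 (-0.786, adjusted p = 0.00401, limma). Adding neonatal nuclei can only raise the D0 share, so the direction of this change was fixed. No gene value was examined for this placement. Inh_Pvalb with Inh_Lamp5 was called under all 10 alternatives (highest adjusted p = 0.0254, with the replicate block) and Inh_Sst with Inh_Lamp5 under 0 of 10. With Inh_Lamp5 added to Inh_Sst, 1 type was called by the quasi-binomial model and 1 to 2 on leaving out single libraries, in place of 2. Over all nuclei, neurons as the only denominator brought Inh_Sst with Inh_Lamp5 (-1.05, adjusted p = 0.0257) and Inh_Vip with Inh_Lamp5 (-1.13, 0.0380) past the threshold. The 0 called types of each partition became 2 (Inh_Sst), 2 (Inh_Pvalb) and 3 (Inh_Vip) over neurons, 1 (OPC) with the replicate block in each, and 0 to 4, 0 to 4 and 0 to 2 with each library left out, where only the fits without Y2 replicate 2 gave calls. The replicate block changed no other call of a combined type, and an exact sign flip over the 2 batches gave p = 0.5 for the ratio of Vip and Lamp5 to Sst and Pvalb, the smallest value 2 pairs allow. That log2 difference was -1.14 when cluster 20 joined Inh_Lamp5, and ranged from -0.855 to -0.336 on leaving out single libraries. Causes were not tested.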
